A study of Mus musculus with 3 samples.

Results

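The steady, broadly open regions were the features that were open in many nuclei of telogen, anagen and UVB-exposed skin, at a similar level in all 3 conditions. They were chosen by the measured values: an autosomal feature was kept when at least 3% of nuclei held a count in it in each of the 3 conditions and its highest CPM was at most 1.5 times its lowest. CPM is the usual depth-scaled level, here the counts in a feature divided by all counts of the condition in features and multiplied by 1e6. Of 308931 autosomal features, each 500 bp long, 5158 met both limits (1.67%). Of the 6071 features that met the share limit, 913 had a ratio above 1.5 (15%) and serve below as the nearest comparison. Shares, CPM values and ratios by condition chose the regions and are given as a description.

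The values come from single-nucleus ATAC-seq, in which the Tn5 transposase cuts and tags open DNA in each nucleus. The mice carried Dct-rtTA; Tre-H2B-GFP, so that under doxycycline a histone fused to GFP was made where the Dct promoter, one of the melanocyte lineage, was in use. Nuclei with GFP were taken from the back skin by sorting. All mice received doxycycline for 5 days. Telogen, when the hair follicle rests, was represented by 12 mice and anagen, when it grows, by 8 mice whose hair had been removed with Nair cream to start that phase. The telogen and anagen mice formed 1 GEO sample, and 24 mice given 3 exposures to UVB at 2.2 mJ/cm2 formed 1 pool with technical replicates in the other 2 GEO samples. The age is given as 8 weeks in the sample characteristics and as 7 weeks in the treatment text. Mice were pooled and nuclei were not assigned to mice or to the UVB replicates, so each condition was 1 sample and no difference between conditions has a replicate check.

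Counting each barcode once per condition left 2042 nuclei in telogen (5225945 counts), 3753 in anagen (10397896 counts) and 6553 in UVB (16182770 counts). The median nucleus held 1650, 1577 and 1726 counts. The share limit of 3% thus stood for at least 62, 113 and 197 open nuclei. Barcodes were shared by telogen and UVB (289) and by anagen and UVB (217), and none by telogen and anagen. The sort was mixed when nuclei were clustered on features other than the steady regions: 2906 of 12348 nuclei were melanocyte-like, 2220 keratinocyte-like, 1901 endothelial-like, 1528 fibroblast-like, 801 myeloid and Langerhans-like and 623 Schwann-like, and 2369 stayed unnamed. Melanocyte-like nuclei made up 6.71% of telogen, 25.8% of anagen and 27.5% of UVB nuclei, and endothelial-like nuclei 30.2%, 22.8% and 6.52%.

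Promoters of genes that most cells use are commonly CpG islands, stretches rich in unmethylated CG pairs that hold a nucleosome-free gap just upstream of the start of transcription. General activators such as SP1, NFY, NRF1, the ETS family, YY1, CREB and ZNF143 bind short motifs in such gaps. Many of these promoters fire in both directions, so that a pair of genes shares 1 open region. Promoters with a TATA box are more often those of tissue-restricted or inducible genes.

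To show the sequence at starts under steady regions, 6 promoter windows are printed, each the one whose region was open in the most nuclei among windows that overlap a steady region and hold a given motif. Each window runs from 250 bases before to 50 bases after a RefSeq gene start in the GRCm38.p6 build, 5′ to 3′ on the gene's own strand, and capitals mark the motif on either strand. Hdgfl2 (chr17:56079381-56079680, plus strand; a chromatin-binding protein of the HDGF family) shows the ETS motif CCGGAAGT. 4930579G24Rik (chr3:79628829-79629128, plus strand) shows the NRF1 motif. 4932412D23Rik (chr16:42875538-42875837, minus strand) shows 5 copies of the NFY motif CCAAT. Cnot3 (chr7:3645019-3645318, plus strand; a subunit of the CCR4-NOT deadenylase) shows the YY1 motif. 1110020A21Rik (chr17:84957374-84957673, minus strand) shows the CRE, TGACGTCA, which CREB proteins bind. Pdcd10 (chr3:75556803-75557102, minus strand; a protein of vessel-wall integrity) shows the ZNF143 motif.
Hdgfl2: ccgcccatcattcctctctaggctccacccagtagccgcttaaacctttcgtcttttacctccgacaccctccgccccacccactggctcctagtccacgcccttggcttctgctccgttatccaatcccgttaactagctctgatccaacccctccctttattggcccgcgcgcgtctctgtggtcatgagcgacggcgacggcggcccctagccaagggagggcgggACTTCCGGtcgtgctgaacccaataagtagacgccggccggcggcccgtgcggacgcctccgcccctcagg
4930579G24Rik: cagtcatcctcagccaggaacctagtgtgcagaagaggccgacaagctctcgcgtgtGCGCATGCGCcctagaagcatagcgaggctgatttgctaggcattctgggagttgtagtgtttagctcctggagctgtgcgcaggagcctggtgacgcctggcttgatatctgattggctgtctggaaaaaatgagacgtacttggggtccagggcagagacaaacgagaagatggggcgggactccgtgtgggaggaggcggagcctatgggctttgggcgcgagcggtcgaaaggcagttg
4932412D23Rik: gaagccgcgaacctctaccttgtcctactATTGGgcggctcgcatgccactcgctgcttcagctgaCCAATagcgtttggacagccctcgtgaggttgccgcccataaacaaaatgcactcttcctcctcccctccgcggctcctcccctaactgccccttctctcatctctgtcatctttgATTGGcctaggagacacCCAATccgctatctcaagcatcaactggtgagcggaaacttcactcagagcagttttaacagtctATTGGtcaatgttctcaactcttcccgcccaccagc
Cnot3: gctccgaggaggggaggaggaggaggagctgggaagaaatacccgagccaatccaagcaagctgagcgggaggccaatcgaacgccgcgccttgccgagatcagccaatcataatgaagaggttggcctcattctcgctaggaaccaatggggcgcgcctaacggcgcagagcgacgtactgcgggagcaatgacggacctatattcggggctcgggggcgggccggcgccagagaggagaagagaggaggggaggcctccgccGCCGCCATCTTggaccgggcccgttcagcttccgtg
1110020A21Rik: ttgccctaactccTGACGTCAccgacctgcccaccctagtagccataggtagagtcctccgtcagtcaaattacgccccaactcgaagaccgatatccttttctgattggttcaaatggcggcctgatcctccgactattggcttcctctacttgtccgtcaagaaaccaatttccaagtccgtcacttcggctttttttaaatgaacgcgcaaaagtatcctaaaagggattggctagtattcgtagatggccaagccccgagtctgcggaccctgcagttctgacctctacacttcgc
Pdcd10: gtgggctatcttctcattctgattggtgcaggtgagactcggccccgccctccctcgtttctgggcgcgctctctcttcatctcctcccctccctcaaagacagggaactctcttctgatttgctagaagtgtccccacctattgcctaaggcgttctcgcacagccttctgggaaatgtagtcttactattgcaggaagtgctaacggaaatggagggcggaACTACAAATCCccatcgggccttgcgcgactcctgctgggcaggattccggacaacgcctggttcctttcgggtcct
The windows overlap their regions in part or whole: the marked match lies inside the steady region for 4930579G24Rik, 1110020A21Rik, Pdcd10 and 3 of the 5 matches of 4932412D23Rik, and outside it for Hdgfl2, whose window shares 55 bp with the region, and Cnot3, whose window shares 207 bp. These windows had a GC content of 64.0%, 58.0%, 54.0%, 64.3%, 50.3% and 56.0% in the order printed. The region at the 4932412D23Rik start was open in 22.0%, 22.8% and 26.2% of telogen, anagen and UVB nuclei, and the region that Hdgfl2 shares with Ubxn6 in 18.2%, 18% and 20.8%. The region at 1110020A21Rik was open in 15.6%, 14.5% and 16.1%, at Cnot3 in 15.0%, 13.5% and 14.8%, at Pdcd10 in 13.0%, 11.9% and 13.3%, and at 4930579G24Rik in 11.2%, 10.8% and 12.2%.

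Position was not used by the rule, and the steady regions lay mostly at gene starts. Of 5158 regions, 3986 (77.3%) lay within 1 kb of a RefSeq gene start, against 10.2% of all autosomal features, 69.3% of the broadly open regions with a ratio above 1.5 and 8.91% of the remaining features. Another 635 (12.3%) lay within 1 kb of an end of a gene for which the start table had no entry. The same held for 3.19% of all autosomal features and 12.6% of the broadly open regions with a ratio above 1.5. The strand of those genes is not given in the tables used here, so start and end cannot be told apart there. Gene bodies held 347 (6.73%, against 52.7% of all autosomal features) and stretches between genes 190 (3.68%, against 33.9%). A start lay inside the 500 bp of 3318 regions (64.3%), against 4.00% of all autosomal features.

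**Figure D1:**
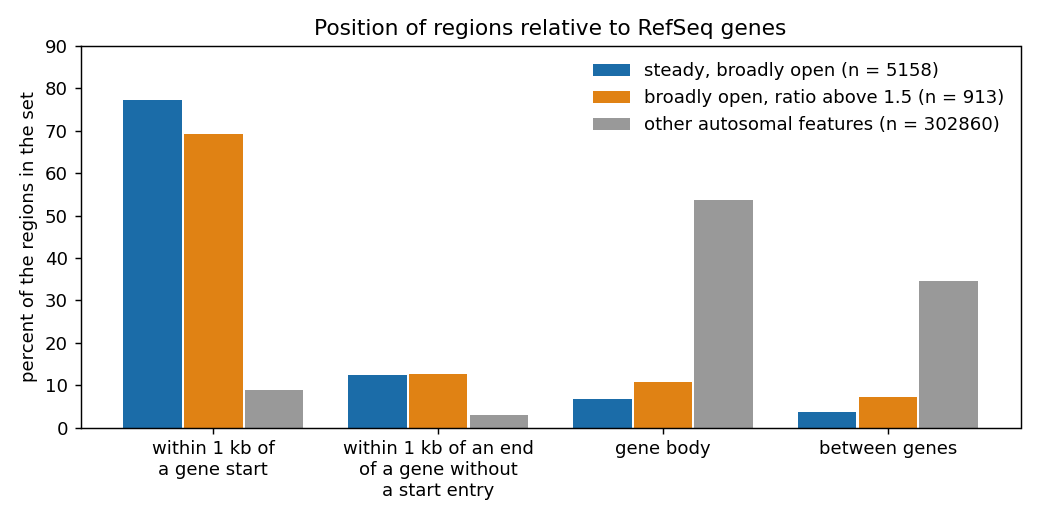
Percent of regions (vertical axis) in 4 positions relative to RefSeq genes, for the 5158 steady regions, the 913 broadly open regions with a ratio above 1.5 and the 302860 other autosomal features. The steady regions reach 77.3% at gene starts, and the other features lie mainly in gene bodies and between genes.

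The steady regions sat just upstream of the start. Among those within 1 kb of a start, the centre of the region lay at a median of -55 bp (upstream; interquartile range -124.75 to 3 bp), and 83.2% of the centres lay within 250 bp of the start. The broadly open regions with a larger ratio had nearly the same share (83.4%), whereas the other features near a start had 31.5%, with a median of 35 bp downstream and a interquartile range from -336 to 598 bp. Starts on both strands lay within 1 kb of 1001 of the 3986 regions (25.1%), of 18% of the broadly open regions with a larger ratio and of 12.0% of the other features at a start. Regions with starts on both strands were open in a median of 6.22%, 5.89% and 5.75% of telogen, anagen and UVB nuclei, and those with starts on 1 strand in 5.73%, 5.41% and 5.25%.

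**Figure D2:**
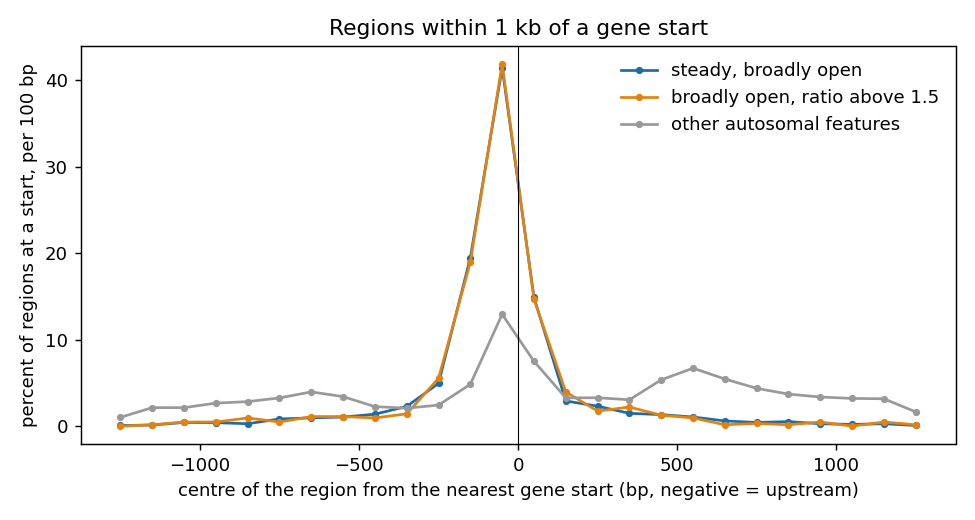
Distance of the region's centre from the nearest gene start (horizontal axis, bp, negative is upstream) against the percent of the set's regions at a start in each 100 bp bin (vertical axis), for steady regions, broadly open regions with a ratio above 1.5 and other autosomal features. Both broadly open sets peak just upstream of the start, with 83.2% and 83.4% of centres within 250 bp, and the other features spread over the window, with 31.5%.

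The regions were spread over all autosomes, from 20.1 per 100 protein-coding genes on chromosome 13 to 31.4 on chromosome 8. Most stood alone: 877 (17.0%) lay within 1 kb of another steady region, which left 4692 separate runs. The longest run held 6 regions around Junb, an AP-1 gene of the immediate early response, at chr8:84976407-84981493. The lowest share over the conditions was 10.2%, 3.48%, 4.72%, 13.4%, 8.37% and 3.57% in the 6 regions from one end of that run to the other. The region over the Junb start was open in 16.2%, 13.4% and 13.9% of telogen, anagen and UVB nuclei.

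In level, the steady regions were a small part of the features and a large part of the counts. They made up 1.63% of the features and held 25.9% of telogen, 22.6% of anagen and 25.8% of UVB counts. The median region was open in 5.73%, 5.46% and 5.31% of nuclei, with ranges of 3.04% to 22.3%, 3.01% to 22.8% and 3.01% to 26.2%. The median CPM was 43.1, 37.6 and 41.6. The median nucleus had 241, 217 and 246 of the 5158 regions open. An open nucleus carried 1.96, 1.95 and 1.98 counts per region, close to the pair that makes up most entries of these matrices.

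Within the limit of 1.5, the levels still leaned one way. The ratio of highest to lowest CPM had a median of 1.26 (interquartile range 1.17 to 1.35). The highest CPM was in telogen in 2628 regions (50.95%), in UVB in 2146 (41.6%) and in anagen in 384 (7.44%), and the lowest was in anagen in 3456 (67.0%). The broadly open regions with a larger ratio had the same order, with the lowest CPM in anagen in 728 of 913. Over all autosomal features the highest was in telogen in 38.2%, in UVB in 23.6% and in anagen in 38.2%, and the lowest was in anagen in 31.7%. Those features were far less open, with medians of 0.147%, 0.187% and 0.137% of telogen, anagen and UVB nuclei. The counts in melanocyte-like cluster 8, of which 19.3% fell in steady regions in anagen, came from 788 of the 3753 anagen nuclei, and the cluster held 3 telogen and 40 UVB nuclei. Its part in the lower anagen level was not tested. Regions open in more nuclei met the ratio limit more often: 2615 of 3250 (80.5%) with a lowest share of 3% to 5%, 2118 of 2369 (89.4%) from 5% to 10%, and 425 of 452 (94.0%) from 10% up. The share of steady regions at a gene start was 75.8%, 78.0% and 83.1% in the same 3 steps. The rule used both the lowest share and the ratio. The highest over lowest of 3 values includes counting error, which is larger where counts are few. Its part in the rise from 80.5% to 94.0% was not tested.

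The ratio limit cut through a continuous range. For 2035 steady regions (39.5%) the 95% interval of the ratio reached above 1.5, and for 726 of the 913 regions outside (79.5%) it reached down to 1.5 or below. Just inside lay the starts of Slc19a2 (a thiamine transporter), Bag6 (a chaperone for tail-anchored proteins) and Rps26 (a ribosomal protein), each at 1.50. Just outside lay the starts of Bcar1 and Med11 and an end of Rwdd1, a gene without a start entry, also at 1.50. At the share limit, Mast2, Mknk1 and Ppm1h lay just inside and Erich1, Gm52627 and Tcf25 just outside, with lowest shares of 3.01% and 2.99%. The largest ratio outside belonged to the start of Dct, the gene whose promoter drives the label: its region was open in 6.91%, 18.9% and 30.2% of telogen, anagen and UVB nuclei, a ratio of 4.90 in CPM (exact conditional binomial 95% interval 4.4 to 5.48). All intervals here cover counting error only, and are too narrow because counts come in pairs.

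**Figure D3:**
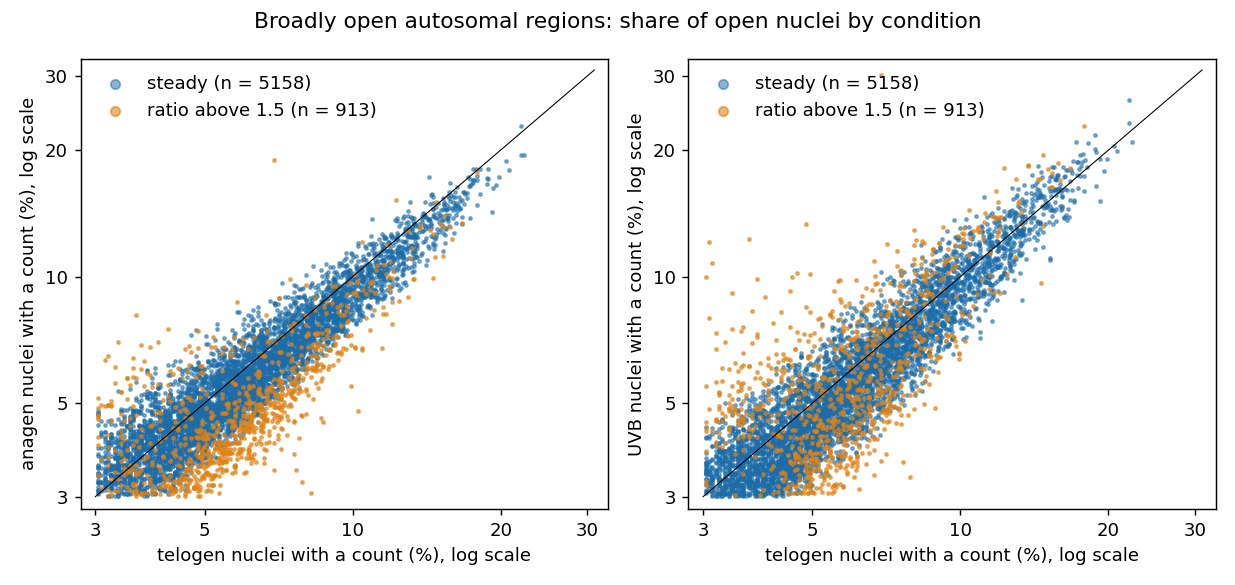
Percent of telogen nuclei with a count (horizontal, log scale) against percent of anagen nuclei (left) and UVB nuclei (right, both log scale), 1 point per broadly open region, with the line of equal shares. The 5158 steady regions follow the line from about 3% up to 26.2%, and the 913 with a ratio above 1.5 lie on both sides, with Dct at 6.91%, 18.9% and 30.2% as the point far above it.

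By the lowest share over conditions, the most widely open steady region lay at the start of 4932412D23Rik. Its shares were 22.0% (Clopper-Pearson 95% interval 20.2 to 23.8), 22.8% (21.4 to 24.1) and 26.2% (25.2 to 27.3), with 174, 163 and 218 CPM. Jund, an AP-1 subunit present in resting cells, followed with 22.3% (20.5 to 24.2), 19.5% (18.2 to 20.8) and 20.9% (19.9 to 21.9), in a region 845 bp from the start. Sp1, the factor that binds GC boxes, was open in 22.0%, 19.5% and 23.2%. By share of open nuclei anagen was the lowest at Jund and Sp1 and telogen at 4932412D23Rik, and by CPM anagen was the lowest at all 3.

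Hspa8, the constitutive HSP70 chaperone, was open in 20.5%, 18.9% and 20.5% of telogen, anagen and UVB nuclei. Ubxn6, a cofactor of the p97 unfoldase, had 18.2%, 18% and 20.8%, and Dnpep, an aspartyl aminopeptidase, 20.8%, 17.9% and 19.9%. Kat6b, a histone acetyltransferase, had 17.6%, 18.1% and 18.3%, and Rab40c, a Rab protein that works in a ubiquitin ligase, 17.9%, 17.3% and 17.4%. The AP-1 gene Jun had 19.9%, 17.3% and 19.1%, and Gm31645 17.8%, 18.1% and 19.5%. The smallest ratios over conditions, 1.00 to 1.01, were those of Smap2 (an Arf GTPase-activating protein; 32.0, 31.9 and 32.0 CPM), Brd3os (35.2, 35.3 and 35.5), Sptan1 (alpha spectrin; 76.2, 76.9 and 76.6), Mcoln1 (a lysosomal cation channel; 45.5, 45.2 and 45.7) and Fkbp1a (a prolyl isomerase that binds FK506; 41.9, 41.4 and 41.8). For these 5 the highest and lowest condition could not be told apart at this depth.

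Gene functions were read from 24 gene lists, of which 838 autosomal genes were matched. A gene counts as having a steady region when one lies within 1 kb of its start, or of either end for a gene without a start entry. Among all 20661 autosomal protein-coding genes, 4744 had one (23%), and among the list genes 454 (54.2%). The lists had been put together with earlier results of these data known, so their counts are descriptions.

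Heterogeneous nuclear ribonucleoproteins and chaperones held the highest shares of the 24 lists. Heterogeneous nuclear ribonucleoproteins, which package and splice nascent RNA, had a steady region at 23 of 25 genes (92.0%). Hnrnpa2b1 was open in 14.9%, 15.0% and 14.9% of telogen, anagen and UVB nuclei, Hnrnpl in 16.7%, 15.2% and 13.9% and Hnrnpc in 15.0%, 12.7% and 14.6%. Chaperones and heat shock genes had one at 32 of 35 (91.4%). Beside Hspa8, the co-chaperone Stip1 had 16%, 14.4% and 16.6%, and the mitochondrial co-chaperonin Hspe1, whose start is shared with that of Hspd1, had 14.2%, 13.2% and 16.5%. Splicing factors had one at 22 of 41 genes (53.7%), led by Sf1, which recognises the branch point (16.1%, 15.9% and 15.6%).

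Transcription factors of general promoters had a steady region at their own starts at 24 of 30 genes (80.0%). This list holds ETS, NRF1, NFY, SP and CREB factors. Nfya, the subunit of NFY that contacts DNA, was open in 17.3%, 17.1% and 18.7% of telogen, anagen and UVB nuclei, and Klf13 in 15.8%, 15.1% and 17.4%. Immediate early and AP-1 genes, which cells induce within minutes of a stimulus, had one at 23 of 30 (76.7%). Klf6, a zinc finger factor of that list, had 15.5%, 14.0% and 18.3%, at a ratio of 1.50. The RNA polymerase II and mediator list had 23 of 44 (52.3%), with Polr2a, the largest subunit of the polymerase, at 12.6%, 11.8% and 10.3%, and Hexim1, an inhibitor of the elongation factor P-TEFb, at 12.9%, 12.6% and 10.7%.

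Chromatin modifiers and architecture genes counted 32 of 54 (59.3%), with the cohesin subunit Stag1 at 15.9%, 15.7% and 16.2% and the histone variant gene H2az1 at 15.7%, 13.2% and 17.0%. DNA repair and p53 genes counted 24 of 40 (60.0%). The nucleotide excision repair gene Rad23b was open in 12.6%, 12.2% and 14.1% of telogen, anagen and UVB nuclei. Atm, the kinase that signals DNA breaks, had 11.8%, 9.27% and 10.8%. The region at Atm is also that of the start of Npat, so these genes cannot be told apart. Cell cycle and replication genes had 17 of 42 (40.5%), with Cdk4 at 13.4%, 11.8% and 12.9%.

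Ubiquitin genes had 21 of 31 (67.7%), with the conjugating enzyme Ube2d3 at 16.2%, 14.7% and 18.2% of nuclei. Cytosolic ribosomal proteins had 45 of 70 (64.3%), with Rpl13a at 12.1%, 12.4% and 12.5%, and translation factors 23 of 36 (63.9%), with Eif5a at 15.3%, 14.9% and 14.4%. The proteasome had 14 of 31 (45.2%), with Psma2, whose region also covers the start of Mrpl32, at 7.00%, 7.06% and 8.29%. Aminoacyl-tRNA synthetases had 9 of 22 (40.9%).

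Membrane traffic and Rab genes counted 36 of 49 (73.5%), with Rab8a, of exocytosis, at 15.7%, 15.9% and 17.4% and Rab5a, of early endosomes, at 15.7%, 14.0% and 17.2%. Cytoskeleton genes had 22 of 33 (66.7%), with the tubulin gene Tubb4b at 16.5%, 15.4% and 16.1%. Energy metabolism was lower: glycolysis had 8 of 15 (53.3%), with Aldoa at 10.2%, 9.14% and 9.03%, and oxidative phosphorylation 23 of 56 (41.1%), with Ndufs8 of complex I at 8.77%, 8.42% and 8.44%. Host genes of snoRNAs had 6 of 13 (46.2%), with Snhg5 at 10.4%, 8.61% and 10.0%. Wnt signalling had 10 of 30 (33.3%), with the kinase gene Gsk3b at 17.2%, 17.2% and 20.9%.

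A few lists lay at or below the 23% of all genes. Mitochondrial ribosomal proteins had 9 of 42 (21.4%), and 3 of the most open, Mrps18b, Mrpl34 and Mrpl17, had 19.2%, 14.2% and 15.2%, 11.3%, 10.2% and 13.3%, and 13.5%, 12.4% and 14.8% of telogen, anagen and UVB nuclei. The Mrps18b region is also that of Ppp1r10 and the Mrpl34 region that of Abhd8. Over all 78 mitochondrial ribosomal protein genes found by symbol (Mrpl and Mrps), 23 had a steady region (29.5%). That is above the 23% of all genes, so the low share holds for this list only. MHC class I and interferon genes had 3 of 22 (13.6%), the signalling genes Stat2, Irf9 and Irf2, and 7 others had a broadly open region with a ratio above 1.5. Of all broadly open features, 15% had such a ratio, a share over features and not over genes. Genes of neuronal channels and receptors had 1 of 24 (4.17%): the region counted for Cacna1a lay at an end of that gene, which has no start entry.

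**Figure D4:**
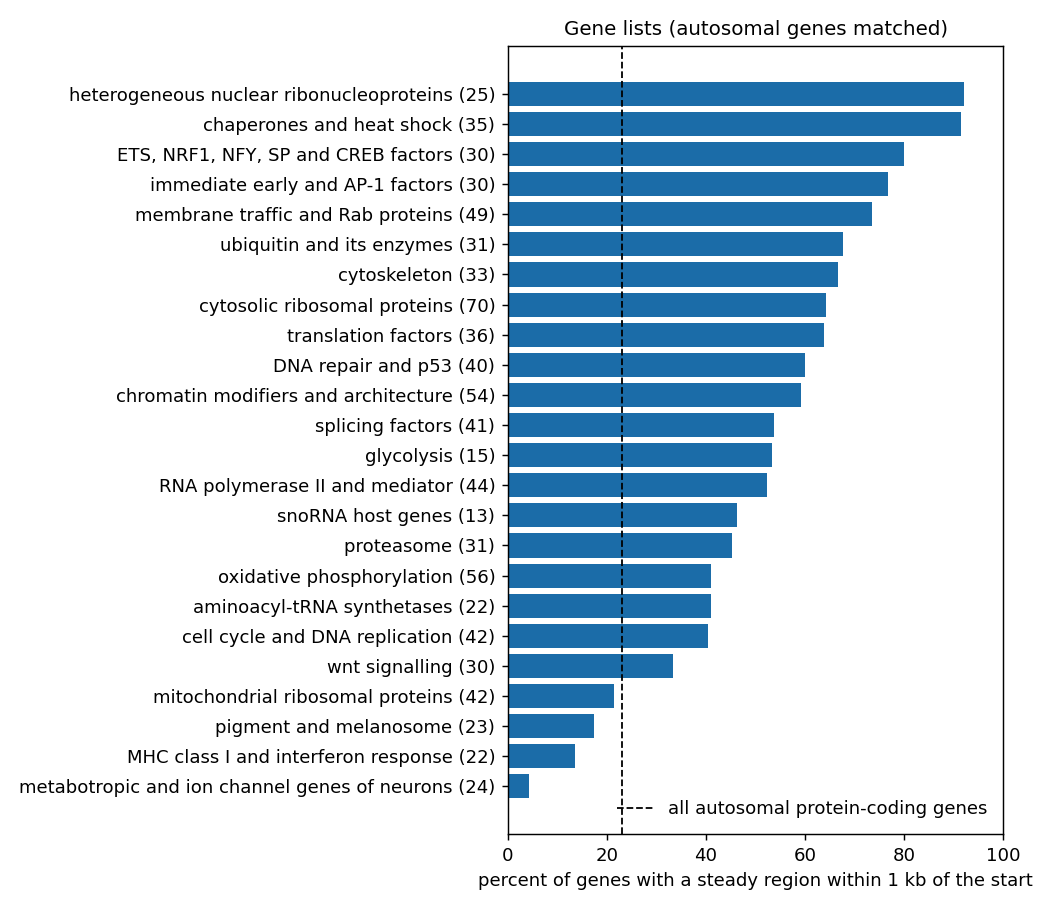
Percent of each list's autosomal genes (bars; number matched in brackets) with a steady broadly open region within 1 kb of the start. The dashed line is the share among all autosomal protein-coding genes (23%); the lists run from 4.17% for neuronal genes to 92.0% for heterogeneous nuclear ribonucleoproteins.

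Most lists of cell type markers had no gene with a steady region. Pigment and melanosome genes had one at 4 of 23 (17.4%), not far below the 23% of all autosomal protein-coding genes. The region counted for Pmel, the melanosome fibril protein, also covers the start of the endosome gene Rab5b and was open in 12.8%, 13.1% and 14.2% of telogen, anagen and UVB nuclei. Its CPM was 130 in melanocyte-like and 95.9 in keratinocyte-like nuclei, the highest and lowest of the 6 classes. Cd63, a tetraspanin of late endosomes and melanosomes, had 4.21%, 6.18% and 4.67%, and Myo5a, the motor that carries melanosomes, 3.04%, 4.80% and 4.38%. Of 12 melanocyte markers, Pmel and Mitf had a steady region (16.7%), likewise not far below that share. Mitf, the lineage's transcription factor, which has several alternative starts, had 3.04%, 3.52% and 3.11%, close to the share limit. The CPM of the Mitf region was 29.4 in myeloid and Langerhans-like, 29.3 in melanocyte-like and 25.1 in fibroblast-like nuclei, and lowest in Schwann-like nuclei (12.2). Of 9 Schwann markers, Pmp22, a myelin protein, had one (3.18%, 3.25% and 3.45%), and its CPM was highest in fibroblast-like nuclei (47.4) and lowest in myeloid and Langerhans-like nuclei (7.08). None of the keratinocyte (13), fibroblast (11), myeloid and Langerhans (11), endothelial (12), T cell (8), pericyte and smooth muscle (10), skeletal muscle (8) or adipocyte (6) markers had one.

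Promoter windows under steady regions were richer in GC and CpG than promoter windows at large. Of 31396 autosomal promoter windows, 4743 (15.1%) overlapped a steady region. Their median GC content was 65.0%, against 53% over all windows, 56.7% over windows that overlapped only features that were not broadly open and 47.3% over windows with no feature. The ratio of observed to expected CpG had a median of 0.851, against 0.389 over all windows, and it was 0.6 or more in 91.1% against 36.4%. Windows over the broadly open regions with a larger ratio were alike in this, with 65.7% GC and 89.0% at 0.6 or more.

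The motifs of general activators were more common in these windows than in all windows of the same length, counting exact matches on both strands. CCGGAAGT (ETS) was in 9.55% against 3.95%, the NRF1 motif in 3.37% against 0.968%, the YY1 motif in 1.92% against 0.631% and the ZNF143 motif in 3.27% against 1.04%. TGACGTCA (CRE) was in 3.80% against 1.83%, and in 7.39% of windows over broadly open regions with a larger ratio. GGGCGG (SP) was in 78.6% against 36%, a motif whose frequency follows GC content. CCAAT (NFY), which is AT-rich by comparison, was in 45.3% against 37.3%. At least 1 of these 7 was in 91.9% against 62.6%. The ETS, NRF1, YY1, CRE and SP motifs all hold a CG pair, and the windows compared were not matched for GC or CpG. The part of base composition in these differences was not tested. In windows over the broadly open regions with a larger ratio, SP (83.04%), NFY (48.1%) and at least 1 of the 7 (94.9%) were more common than under steady regions, and ETS (7.68%), NRF1 (1.30%), YY1 (1.16%) and ZNF143 (1.74%) less common.

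The TATA hexamer and the AP-1 motif were less common under steady regions, and the E-box and M-box more common. The hexamer TATAAA, counted anywhere in the window on both strands, was in 4.17% of windows over steady regions against 13.6% of all. TGANTCA (AP-1) was in 3.39% against 7.84%. CACGTG (E-box) was in 12.0% against 7.14%, and TCACGTGA (the M-box that MITF binds, which contains the E-box) in 2.74% against 0.949%. The E-box and M-box also hold a CG pair, and TATAAA holds only A and T. The part of base composition in these differences was not tested either. Within the windows over steady regions, those with CCAAT had a median lowest share of open nuclei of 5.60% against 4.85% without it, and those with GGGCGG 5.37% against 4.603%. This share was also higher with AP-1 (5.72% against 5.17%), TATAAA (5.36% against 5.17%), CRE (5.36% against 5.17%) and the M-box (5.24% against 5.17%). It was lower with ETS (4.80% against 5.23%), ZNF143 (4.80% against 5.20%), NRF1 (4.99% against 5.19%), YY1 (5.09% against 5.19%) and the E-box (5.12% against 5.19%). The rule used this share, so these values are a description. The median position of a match from the start was -88 for CCAAT (interquartile range -154 to -47), -73 for GGGCGG (-141 to -24), -45 for CCGGAAGT (-118 to -5.5) and 4.5 for the YY1 motif (-136 to 21). For TATAAA it was -106 (-201 to -29), so the matches were spread over the window. A match is a description of the letters and no evidence of binding.

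Nearly all steady regions were open to some degree in each named cell class. In every one of the 6 named classes, 5000 of the 5158 regions (96.9%) were open in at least 1% of nuclei, and 3027 (58.7%) in at least 3%, against 91.6% and 46.9% of the broadly open regions with a larger ratio. The ratio of the highest to the lowest class in CPM had a median of 1.84 (interquartile range 1.57 to 2.27). It was above 2 for 1962 steady regions (38.0%), where 41.3% of all broadly open regions and 59.8% of those with a larger ratio over conditions passed it. The highest over lowest of 6 values includes counting error, and the smallest class held 1311099 counts. The flattest were Csnk1g3 (1.05), a casein kinase, Acly (1.07), which makes cytosolic acetyl-CoA, and Tpp2 (1.12), a cytosolic peptidase.

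Regions away from gene starts were less even across classes. The ratio was above 4 for 3.66% of steady regions at gene starts, for 4.57% at an end of a gene without a start entry, for 24.5% in gene bodies (85 of 347) and for 27.9% between genes (53 of 190). The 313 regions above 4 were most often highest in fibroblast-like (97) or endothelial-like (96) nuclei and lowest in myeloid and Langerhans-like nuclei (160). Over all steady regions, fibroblast-like nuclei were the highest in 7.44% and endothelial-like nuclei in 36.3%. Myeloid and Langerhans-like nuclei were the lowest in 12.2%. Against these shares, the 313 regions were more often highest in fibroblast-like nuclei and lowest in myeloid and Langerhans-like nuclei. They were less often highest in endothelial-like nuclei. The most uneven was a region in the body of Col4a1 (chr8:11273379-11273879), a basement membrane collagen gene: 117 CPM in fibroblast-like nuclei and 0.316 CPM, from 3 counts, in melanocyte-like nuclei, a ratio of 371 (95% interval 127 to 1805). Regions in Gm31838 (97.3 against 0.738 CPM) and in Capn5 (62.8 against 0.632 CPM) were likewise highest in fibroblast-like and lowest in melanocyte-like nuclei. Yet over conditions the Col4a1 region was open in 3.04%, 4.72% and 3.43% of telogen, anagen and UVB nuclei. Fibroblast-like nuclei made up 10.6%, 13.7% and 12.2% of the 3 conditions. A region could thus meet the limit over conditions and differ widely between classes.

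The share of a class's counts that fell in steady regions ranged from 21.9% in keratinocyte-like to 29.1% in endothelial-like nuclei, with 26.3% in Schwann-like, 25.5% in melanocyte-like, 25.4% in myeloid and Langerhans-like and 23.2% in fibroblast-like nuclei. In melanocyte-like nuclei it was 32.4% in telogen, 20.2% in anagen and 30.5% after UVB, from 137, 970 and 1799 nuclei. The class held different clusters in the 3 conditions: in cluster 1 the shares were 32.8%, 30.6% and 30.9% (134, 182 and 1759 nuclei), and in cluster 8 19.3% in anagen and 23.3% after UVB (788 and 40 nuclei). Within cluster 1 the conditions thus lay close together. In the other classes the 3 conditions lay between 20.9% and 30.2%. Across the unexplained tag numbers in the barcode names, the share ranged from 23.3% to 29.1% in telogen (10 tag numbers), 19.5% to 29.4% in anagen (7) and 22.2% to 32.7% in UVB (15). The conditions' medians over tag numbers were closer (25.7%, 26.2% and 27.3%), but they count small and large tag numbers alike. Over all counts the share was 25.9%, 22.6% and 25.8%, lowest in anagen. Anagen tag numbers 3 to 5, with 1535, 821 and 701 nuclei, had 22.8%, 22.6% and 19.5%.

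**Figure D5:**
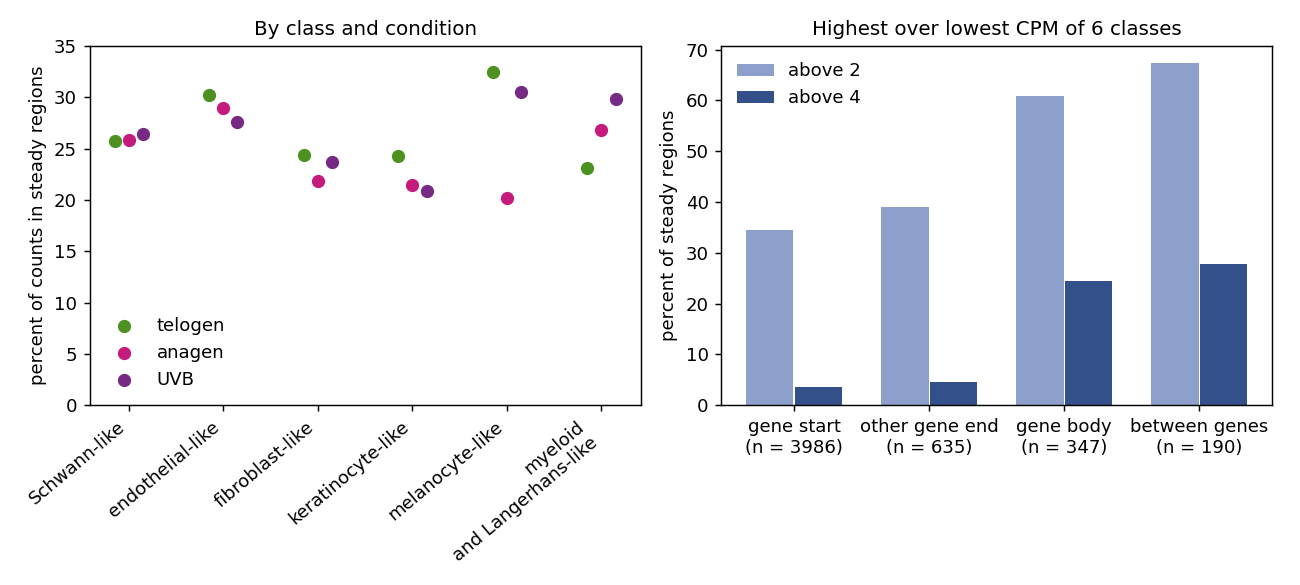
Left, percent of a class's counts that fell in steady regions (vertical axis) for 6 named classes and 3 conditions, 1 point each; right, percent of steady regions whose highest over lowest CPM among the classes was above 2 or above 4, by position. Melanocyte-like nuclei in anagen (20.2%) lie below telogen and UVB, and the bars above 4 rise from 3.66% at gene starts to 27.9% between genes.

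Steady regions far from gene starts were few. Over 10 kb from any start entry and from any end of a gene without one lay 170 regions (3.30%), 102 in gene bodies and 68 between genes, against 59.0% of all autosomal features and 7.34% of the broadly open regions with a larger ratio. The most open was in the body of Ssc4d (chr5:135962359-135962859), with 17.0%, 15.8% and 15.2% of telogen, anagen and UVB nuclei. Next came a region 30954 bp from Ptpdc1 (chr13:48546415-48546915; 13.3%, 12.7% and 12.9%), which lay 8143 bp from Mirlet7a-1, a let-7 microRNA gene. A region 104166 bp from Zfat (chr15:68363088-68363588; 11.9%, 12.5% and 14.5%) lay 21799 bp from Mir30d. The others lay 14595 bp from Zfp395 (12.5%, 11.2% and 11.2%), 14421 bp from Gm41907 (11.8%, 11.2% and 10.4%) and 7124 bp from Nr4a1, an immediate early nuclear receptor gene (11.8%, 10.4% and 10.6%). The nearest small RNA gene was farther off for the regions at Nr4a1 (52347 bp), Ssc4d (86596 bp), Gm41907 (130960 bp) and Zfp395 (589529 bp). Such distances over other features are not given here for comparison. Among the classes, the region near Ptpdc1 had CPM values from 93.0 in keratinocyte-like to 127 in endothelial-like nuclei (1.37-fold), and that near Nr4a1 from 64.8 to 139 (2.15-fold) in the same classes.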

How the data were processed

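The authors deposited 1 matrix of whole-number counts per feature and nucleus for each condition. Per the submitters' processing notes, the build was mm10 (GRCm38) and the tools included MACS2, SAMtools and Bowtie2, without versions. No doublet caller was run here. What the authors did to count reads, correct for the transposase, filter nuclei and remove doublets is not given in the sources used here. Where a barcode had several entries in a condition, the deepest was kept (543 second entries left out in telogen, 1721 in anagen, 62 in UVB). No count was above 4.

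Shares have Clopper-Pearson intervals, CPM values exact Poisson intervals and ratios exact conditional binomial intervals, all at 95% and for counting error only. The rule and the search for the nearest start were checked on simulated data, and the intervals were not. With 1 sample per condition no test was run. A count of 0 allows up to 3 counts: 0.574, 0.289 and 0.185 CPM in telogen, anagen and UVB. Gene positions came from RefSeq (GRCm38.p6), with start entries for 27025 genes. Features other than the steady regions and open in at least 20 nuclei (157164) were weighted by TF-IDF, reduced to 30 components (29 kept) and clustered by the Leiden method (15 neighbours, resolution 0.6, seed 1), giving 11 clusters. A name needed 3 markers at 2-fold, a median ahead of every other list by 0.3 (log2) and no rival list better represented in the 10 leading genes; 6 of the 9 named clusters, both melanocyte-like ones among them, had none of their own markers among those 10. Clustering used leidenalg 0.10.2, igraph 0.11.9 and scikit-learn 1.9.0, intervals used scipy 1.17.1, and tables used pandas 2.3.3 and numpy 2.4.6 under Python 3.11.15; figures were drawn with matplotlib 3.10.9.

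Genes named are the 10 most open regions, the 5 smallest ratios, up to 3 genes per list (1 of these is not reported here), the 6 most open regions over 10 kb from a start, 3 on each side of each limit, the extremes over classes, marker genes with a steady region, and for each motif the most open window. The Dct and Junb regions and the small RNA genes were added after their values were seen. The regions, lists, markers and naming rule were chosen with earlier results of these data known. Alternatives covered barcode handling, both limits, scaling, depth, tag numbers, the start window and clustering.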

Additional observations from a re-analysis of the deposited data

How the results depend on the processing

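The number of steady regions depended on the limits and on depth. It fell from 5158 to 2543 at a minimum share of 5%, to 2464 at a ratio limit of 1.25, to 2202 with nuclei thinned to 1000 counts (440 telogen, 1014 anagen and 1291 UVB nuclei were left out as shallower) and to 3258 without nuclei above 3 times their condition's median count. It lay between 4055 and 7464 under the other alternatives, the lowest without telogen tag numbers 1 to 7. The median share of open nuclei was 3.31%, 3.07% and 3.19% in telogen, anagen and UVB after thinning, 4.22%, 3.59% and 4.24% without the very deep nuclei, and 4.602% in telogen without tag numbers 1 to 7.

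The share at a gene start stayed between 73.2% and 79.3%: 73.2% at a minimum share of 2%, 78.8% at 5%, 78.8% after thinning, 74.8% and 79.2% with start windows of 500 bp and 2 kb, and 79.3% without UVB tag number 19. Leaving out that tag number, or anagen tag numbers 3 to 5, was chosen after seeing the data. List genes with a steady region numbered 286 at a minimum share of 5%, against 454. The median ratio over classes was 1.94 at resolution 0.3, 2.36 at 1.0 (7 classes) and 1.82 with seed 3, against 1.84. Motif shares at 2% and 5% stayed within the counting interval in 16 of 22 cases; those for ETS, NFY and SP moved beyond it (ETS 10.4% and 8.63%, NFY 42.4% and 50.8%, SP 76.0% and 82.9%). No paired analysis was possible because each condition is 1 sample and no result comes from a test. Leaving out each UVB replicate was not run, since nuclei carry no replicate. Depth limits the share measure: a region counts as open only where a nucleus has a count in it.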

Other observations

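Transfer RNA genes, which RNA polymerase III transcribes from promoters inside the gene, were a further group under the steady regions. Of 391 autosomal tRNA genes in RefSeq, 42 (10.7%) overlapped one. These lay in 41 regions, 0.795% of the steady regions, against 0.0570% of all autosomal features and 1.10% of the broadly open regions with a larger ratio. Of the 190 steady regions between genes, 15 (7.89%) overlapped a tRNA gene. For microRNA genes the count was 20 of 1136 (1.76%), in 0.368% of the steady regions against 0.0654% of all autosomal features. For snRNA genes it was 9 of 931 (0.967%), in 0.174% against 0.0249%, and for snoRNA genes 5 of 1286 (0.389%), in 0.0969% against 0.0392%. Near-identical copies of tRNA genes share reads, and how such reads were placed is not given in the sources used here.

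Among gene families named by symbol, no olfactory receptor (0 of 1104), vomeronasal receptor (0 of 354) or keratin gene (0 of 49) had a steady region at its start. Zinc finger genes named Zfp had one at 96 of 388 (24.7%), near the 23% of all autosomal protein-coding genes, solute carriers at 66 of 362 (18.2%), kinesins at 8 of 37 (21.6%) and Rab genes at 31 of 65 (47.7%). Ribosomal protein genes had one at 45 of 76 (59.2%) for the cytosolic and 23 of 78 (29.5%) for the mitochondrial ribosome.

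On the X chromosome, which the rule left out, 115 of 6763 features were open in at least 3% of nuclei in all conditions and 79 of them (68.7%) had a ratio of at most 1.5, against 84.96% of the autosomal broadly open features. Of the 79, 63 (79.7%) lay at a gene start. The most open was at Morf4l2, a gene of a histone acetyltransferase complex, with 11.6%, 10.3% and 12.1% of telogen, anagen and UVB nuclei. Features on this chromosome held 1.61%, 1.55% and 1.83% of the counts.

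A steady region at a start was listed at 0 counts in a class in 2 cases, Hspb8 in Schwann-like nuclei (53.6 CPM in keratinocyte-like nuclei) and Gm39090 in myeloid and Langerhans-like nuclei (45.3 CPM in fibroblast-like nuclei).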
